A study of Mus musculus with 10 samples.

Results

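The genes described here are the monocyte chemokine genes Ccl2, Ccl7, Ccl12 and Cx3cl1 and the chemokine receptor genes Ccr2 and Cx3cr1. They were measured in 10 B16 tumors, B16 being a transplantable melanoma line of C57BL/6 origin. Every probe set annotated to 1 of these 6 symbols and to no other was taken, which gave 13 of the 34945 single-symbol probe sets on the Affymetrix mouse expression array. In the comparison of genes each gene stands as its brightest probe set, so the 6 genes are 6 of 18193.

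The arrays comprised 5 tumors labelled Bach2-deficient and 5 labelled wild type (WT), both on the C57BL/6 strain background and with no treatment named. Bach2 encodes a transcriptional repressor of lymphocytes. Whole tumors were broken up mechanically and their total RNA was hybridised, so each value mixes melanoma, stromal and immune cells. The labels give neither the deleted part of Bach2 nor which cells lacked it, and neither age nor sex. Whether each tumor is from its own animal is not stated either, so some of the spread behind the p-values may be technical.

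CCL2, CCL7 and CCL12 are CC chemokines that bind CCR2, the receptor through which inflammatory monocytes leave the bone marrow and enter inflamed tissue and tumors. CX3CL1 (fractalkine) is made as a membrane protein, on endothelial cells among others, and can be shed. Its receptor CX3CR1 is carried by patrolling monocytes, many tissue macrophages, NK cells and some effector T cells. Activated T cells and NK cells can carry CCR2 as well.

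The genes lie in chemokine clusters. In the RefSeq gene table (GRCm38.p6) the protein-coding genes Ccl2, Ccl7, Ccl11, Ccl12, Ccl8 and Ccl1 follow each other on chromosome 11, and Ccr1, Ccr1l1, Ccr3 and Ccr2 on chromosome 9. RefSeq promoter windows were matched for 4 of the 6 genes, Ccl12, Ccr2, Cx3cl1 and Cx3cr1. The 250 bases before the annotated start are shown for the receptor whose RNA differed most and for the ligand gene of its axis that had a window, 5′ to 3′ on the + strand of GRCm38.p6. They span chr9:124101933-124102182 for Ccr2 and chr11:82101595-82101844 for Ccl12, and capitals mark a match to a motif named after the sequences.
Ccr2: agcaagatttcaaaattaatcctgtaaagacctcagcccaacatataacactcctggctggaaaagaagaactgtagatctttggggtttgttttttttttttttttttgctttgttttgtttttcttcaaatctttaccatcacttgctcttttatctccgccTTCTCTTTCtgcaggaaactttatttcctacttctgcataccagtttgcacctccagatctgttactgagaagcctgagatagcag
Ccl12: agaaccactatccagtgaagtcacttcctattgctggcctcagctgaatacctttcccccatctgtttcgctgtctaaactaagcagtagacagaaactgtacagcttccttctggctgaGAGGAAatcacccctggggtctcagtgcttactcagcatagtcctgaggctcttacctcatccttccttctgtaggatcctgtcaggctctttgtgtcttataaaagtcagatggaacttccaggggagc
Both strands were searched for TGANTCA, the core bound by AP-1 and BACH2 (present in 6.75% of the 32851 promoter windows of this length), for the interferon-γ element TTCNNNGAA (7.02%), for GAAANNGAA as a form of the interferon-stimulated response element (7.13%), for GGGNNTTCC as an NF-kB form (4.98%) and for the PU.1 core GAGGAA (23.3%). Ccr2 held GAAANNGAA on the opposite strand, from 86 to 78 bases before its start, and Ccl12 held GAGGAA from 130 to 125 bases before its start. No other of the 5 words was in either window, and the matches overlap no other match. The words were chosen with results known. Longer forms searched first, the interferon-stimulated word with a further A (2.98% of windows) and the NF-kB word with a further T (1.41%), were in neither window, so the Ccr2 match appeared once the word was shortened. The matches describe these letters and show no binding.

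Ccr2 rose, and it was the clearest difference among the 6 genes. Its brightest probe set, 1421186_at, read 11.80, 12.39, 12.26, 12.39 and 12.40 on the Bach2-deficient arrays 1 to 5, against 10.02, 10.47, 10.85, 11.01 and 10.96 on the WT arrays (log2 RMA values). Every Bach2-deficient array lay above every WT array, where the groups of 18.9% of all genes did not overlap (11.2% with Bach2-deficient higher). The change was 1.59 on the log2 scale, or 3.00-fold (SE 0.20, 95% interval 1.13 to 2.04, limma adjusted p = 0.000583 over 18193 genes). In whole tumors, more cells of a type and more RNA per cell cannot be told apart.

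The other 3 probe sets of Ccr2 rose by more. Probe set 1460067_at read 9.60, 10.55, 10.46, 10.68 and 10.37 in Bach2-deficient tumors and 6.61, 8.17, 8.42, 8.09 and 8.92 in WT tumors, a change of 2.29 (SE 0.38). Probe set 1421187_at read 9.79 ± 0.52 and 7.00 ± 0.72 (SD, n = 5 each; Bach2-deficient, then WT), a change of 2.79. Probe set 1421188_at read 9.71 ± 0.46 and 6.84 ± 0.97 in the same order of groups, a change of 2.87 or 7.30-fold. In none of the 4 did the groups overlap, where 16.7% of all probe sets did not overlap, and the limma adjusted p-values over 34945 probe sets ran from 0.000711 to 0.00242. The rise was larger the dimmer the probe set was in WT tumors, from the 3.00-fold of the brightest to the 7.30-fold of the dimmest. As the mean of its 4 probe sets the gene changed by 2.38, so the size of the rise depends on the probe set read, and its direction does not.

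**Figure D1:**
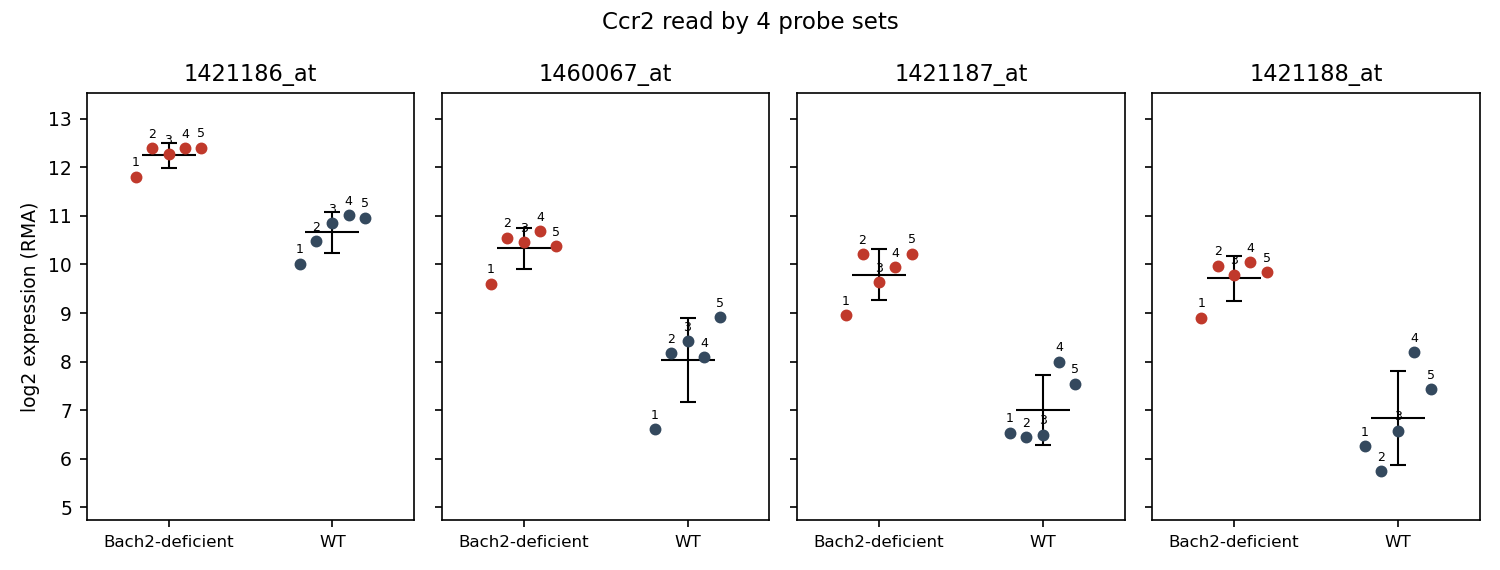
Log2 expression (vertical axis) of Ccr2 on its 4 probe sets, Bach2-deficient arrays left and WT arrays right in each panel. Points are arrays with their replicate number and bars the mean ± SD of 5 arrays. The groups stand apart on every probe set, and Bach2-deficient array 1 is the lowest of its group on each.

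The ligands of CCR2 changed less. Ccl2, the monocyte chemoattractant MCP-1, read 12.23, 12.89, 12.36, 12.64 and 13.14 in Bach2-deficient tumors, against 11.49, 12.30, 12.22, 11.99 and 12.23 in WT tumors. The groups overlapped, since Bach2-deficient array 1 (12.23) lay under WT array 2 (12.30) and level with WT array 5. The difference was 0.61 (1.52-fold, SE 0.21, 95% interval 0.15 to 1.07) with a limma adjusted p of 0.0501, just outside the threshold of 0.05.

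Ccl7 (MCP-3) read 11.51, 12.07, 11.42, 11.83 and 12.33 in Bach2-deficient tumors, against 10.70, 11.59, 11.44, 10.71 and 11.32 in WT tumors. It rose by 0.68 (1.60-fold, SE 0.23) with a limma adjusted p of 0.0499, although the groups overlapped. Ccl2 and Ccl7 had nearly the same p, and the threshold happened to fall between them. Fitted among the 34945 probe sets, Ccl7 had a limma adjusted p of 0.0564 and did not pass. Ccl12 (MCP-5), a mouse chemokine, read 11.80, 12.63, 12.16, 12.25 and 12.55 in Bach2-deficient tumors, against 11.42, 12.19, 12.16, 11.58 and 11.96 in WT tumors. Its difference of 0.42 (SE 0.20, 95% interval -0.03 to 0.86) did not pass (limma adjusted p = 0.143).

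All 3 ligand probe sets were bright in both groups, from 11.42 to 13.14 in Bach2-deficient and from 10.70 to 12.30 in WT tumors, in a table whose values ran up to 14.44. Whether such brightness narrows their differences was not tested.

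The calls of Ccl2 and Ccl7 turned on single arrays. Ccl7 did not pass without Bach2-deficient array 2 (0.62), 4 (0.68) or 5 (0.56), nor without WT array 1 (0.57), 3 (0.75), 4 (0.57) or 5 (0.72), with limma adjusted p-values up to 0.115. Ccl2 passed without Bach2-deficient array 1 (0.71, limma adjusted p = 0.0255). Ccr2 passed in all 10 such fits, with changes from 1.42 to 1.70. With the replicate numbers as a block Ccl2 passed too (0.61, limma adjusted p = 0.0175), but these numbers were not shown to pair the samples.

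**Figure D2:**
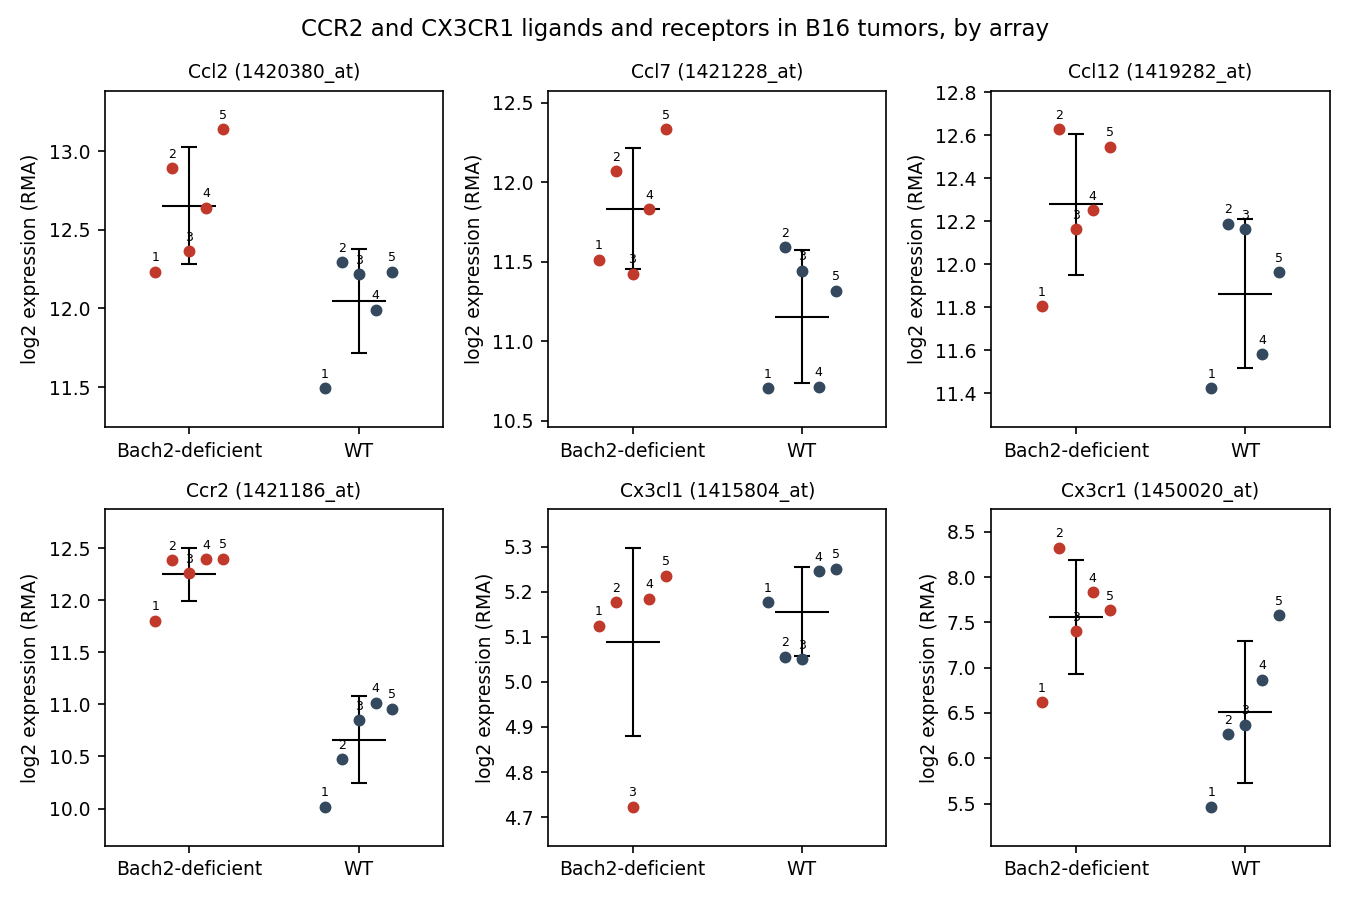
Log2 expression (vertical axes, each with its own range) of the brightest probe set of the 6 genes, Bach2-deficient arrays left and WT arrays right. Points are arrays with their replicate number and bars the mean ± SD of 5 arrays. The groups stand apart for Ccr2 and overlap for the other 5 genes.

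On the CX3CL1 axis neither gene passed. Cx3cr1 on probe set 1450020_at read 6.62, 8.32, 7.40, 7.83 and 7.63 in Bach2-deficient tumors, against 5.46, 6.27, 6.37, 6.86 and 7.58 in WT tumors. WT array 5 lay among the Bach2-deficient arrays, and Bach2-deficient array 1 among the WT arrays. The difference was 1.05 (2.08-fold, SE 0.40, 95% interval 0.17 to 1.94), and its limma adjusted p of 0.0722 missed the threshold. Without WT array 5 it was 1.32 (limma adjusted p = 0.0244) and without Bach2-deficient array 1 it was 1.29 (limma adjusted p = 0.0281), both passing. With the replicate block it passed as well (1.05, limma adjusted p = 0.0281). The other probe set, 1450019_at, was dim, at 3.96 ± 0.14 in Bach2-deficient and 3.70 ± 0.11 in WT tumors (SD, n = 5 each), and did not pass (0.26, limma adjusted p = 0.0889).

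Cx3cl1 was dim on all 4 of its probe sets. On the brightest, 1415804_at, it read 5.13, 5.18, 4.72, 5.18 and 5.24 in Bach2-deficient tumors, against 5.18, 5.06, 5.05, 5.25 and 5.25 in WT tumors. These values lie close to 4.98, the level under which the dimmest 30% of genes fall, and no detection calls were used. The difference was -0.07 (SE 0.11, 95% interval -0.32 to 0.18, limma adjusted p = 0.682). Probe set 1415803_at fell by 0.39 without overlap, reading between 4.38 and 4.73 in Bach2-deficient tumors, against 4.89 to 5.01 in WT tumors (limma adjusted p = 0.0162). Probe sets 1421610_at (-0.02) and 1441884_x_at (-0.18, a type that may also bind other transcripts) did not pass, although 1441884_x_at did not overlap either, at 2.54 to 2.82 in Bach2-deficient and 2.83 to 2.94 in WT tumors. Without Bach2-deficient array 3, the lowest, the sign of the 1415804_at difference turned (0.025).

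**Figure D3:**
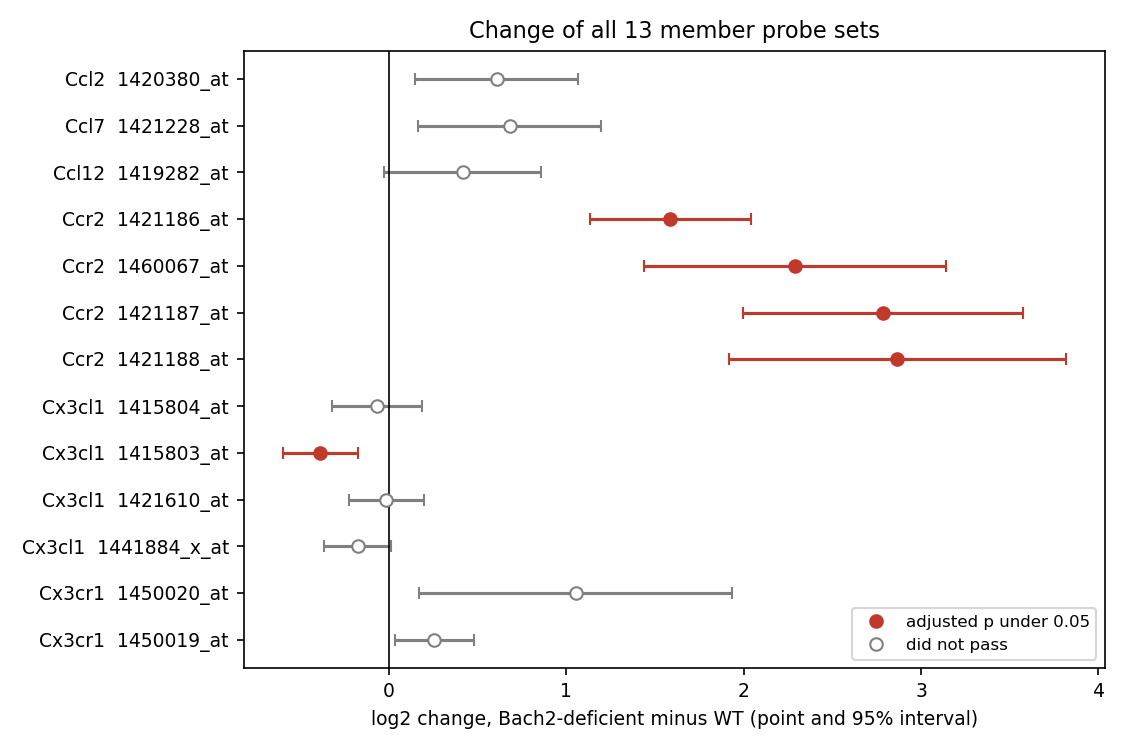
Log2 change, Bach2-deficient minus WT (horizontal axis), with its 95% interval for each of the 13 probe sets, grouped by gene. Filled red points passed at 0.05 after adjustment across the 34945 probe sets (limma). The 4 Ccr2 probe sets lie furthest to the right and 1 Cx3cl1 probe set passed as lower.

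By gene, 2 of the 6 rose (Ccr2 and Ccl7), 0 fell and 4 did not pass, where 16.3% of all genes rose and 12.4% fell (28.7% in all). By probe set, 4 of 13 rose, all of them Ccr2, and 1 fell, where 14.1% of all probe sets rose and 10.1% fell (24.2% in all). With so many genes changed on these arrays, a count of this size says little about the 6 as a group. The count of probe sets was 9 with array weights, 8 with the replicate block, 8 without Bach2-deficient array 1 and 3 with a term for Xist.

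Technical and sex-linked signals differed between the groups too. Spiked poly-A transcripts, put into the RNA ahead of labelling, read 9.93 to 10.16 on Bach2-deficient arrays and 11.94 to 12.37 on WT arrays. Controls added at hybridization differed as well, at 11.55 to 11.88 on Bach2-deficient and 11.96 to 12.64 on WT arrays. Xist, the RNA of the inactive X chromosome, was low on 4 Bach2-deficient arrays and high on array 2 (11.86) and on all WT arrays (11.36 to 12.23). The Y-linked gene Eif2s3y read 4.50 on Bach2-deficient array 2, 10.52 to 10.93 on the other Bach2-deficient arrays and 5.07 to 7.68 on WT arrays. Both sets of controls separated the genotypes without overlap, so their part in the results cannot be told apart from genotype. The part of the sex-linked difference was not tested, except by the Xist term, chosen with earlier results of these data known. Only Bach2-deficient array 2 shared high Xist with the WT arrays. The genotype difference in that fit is therefore array 2 alone against the WT arrays. It was 1.72 for Ccr2, 0.92 for Ccl7, 0.84 for Ccl2, 1.81 for Cx3cr1 and 0.76 for Ccl12. Every result given with the Xist term, counts of genes included, has this limit. Bach2-deficient array 2 lay above every WT array for Ccl2, Ccl7, Ccl12, Ccr2 and Cx3cr1, which restates that fit and adds no separate evidence. The Bach2 gene read lower on its 3 probe sets, by 1.05 (1436515_at, passed), 1.07 and 0.35 (neither passed).

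Ligands were then set against receptors on each array. Since probe sets differ in affinity, only the difference between genotypes of such a per-array value was read, with a 2-sided exact permutation test over the 10 arrays (smallest possible p = 0.00794) and adjustment over the 10 per-array values tested. Ccl2 minus Ccr2 was 0.43, 0.51, 0.10, 0.25 and 0.74 on Bach2-deficient arrays, against 1.48, 1.82, 1.37, 0.98 and 1.27 on WT arrays. It was lower on all 5 Bach2-deficient arrays than on any WT array (difference -0.98, exact p = 0.00794, adjusted p = 0.0265). Ccl12 minus Ccr2 likewise did not overlap, from -0.14 to 0.24 in Bach2-deficient and from 0.57 to 1.72 in WT tumors (difference -1.17, exact p = 0.00794, adjusted p = 0.0265).

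Ccl7 minus Ccr2 ran from -0.84 to -0.07 in Bach2-deficient and from -0.30 to 1.12 in WT tumors, overlapping at WT array 4 (difference -0.91, exact p = 0.0238, adjusted p = 0.0476). Cx3cl1 minus Cx3cr1 differed by -1.12 (exact p = 0.0317) and missed the threshold after adjustment (0.0529). Since the dim Cx3cl1 hardly differed (-0.07), this value mostly restates the difference of Cx3cr1 (1.05) with its sign turned. The measured rise of Ccr2 was thus larger than those of its ligand genes.

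The call of Ccl2 minus Ccr2 held with any 1 array left out. That of Ccl7 minus Ccr2 was lost without Bach2-deficient array 2 (-0.93), 3 (-0.80), 4 (-0.87) or 5 (-0.99) and without WT array 2 (-0.75) or 3 (-0.88). That of Ccl12 minus Ccr2 was lost without Bach2-deficient array 2 (-1.22), 4 (-1.13) or 5 (-1.20), each with an exact adjusted p of 0.0529. The groups still did not overlap there. Without array 2 or 5 the difference was larger than with all arrays (-1.17). With so few arrays the exact p moves in coarse steps, so a lost call need not mean a smaller difference. Cx3cl1 minus Cx3cr1 passed without Bach2-deficient array 1 (-1.36) or WT array 5 (-1.36). With genes as the mean of their probe sets, where Ccr2 includes its dimmer probe sets, the 3 CC differences were -1.78, -1.70 and -1.97.

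**Figure D4:**
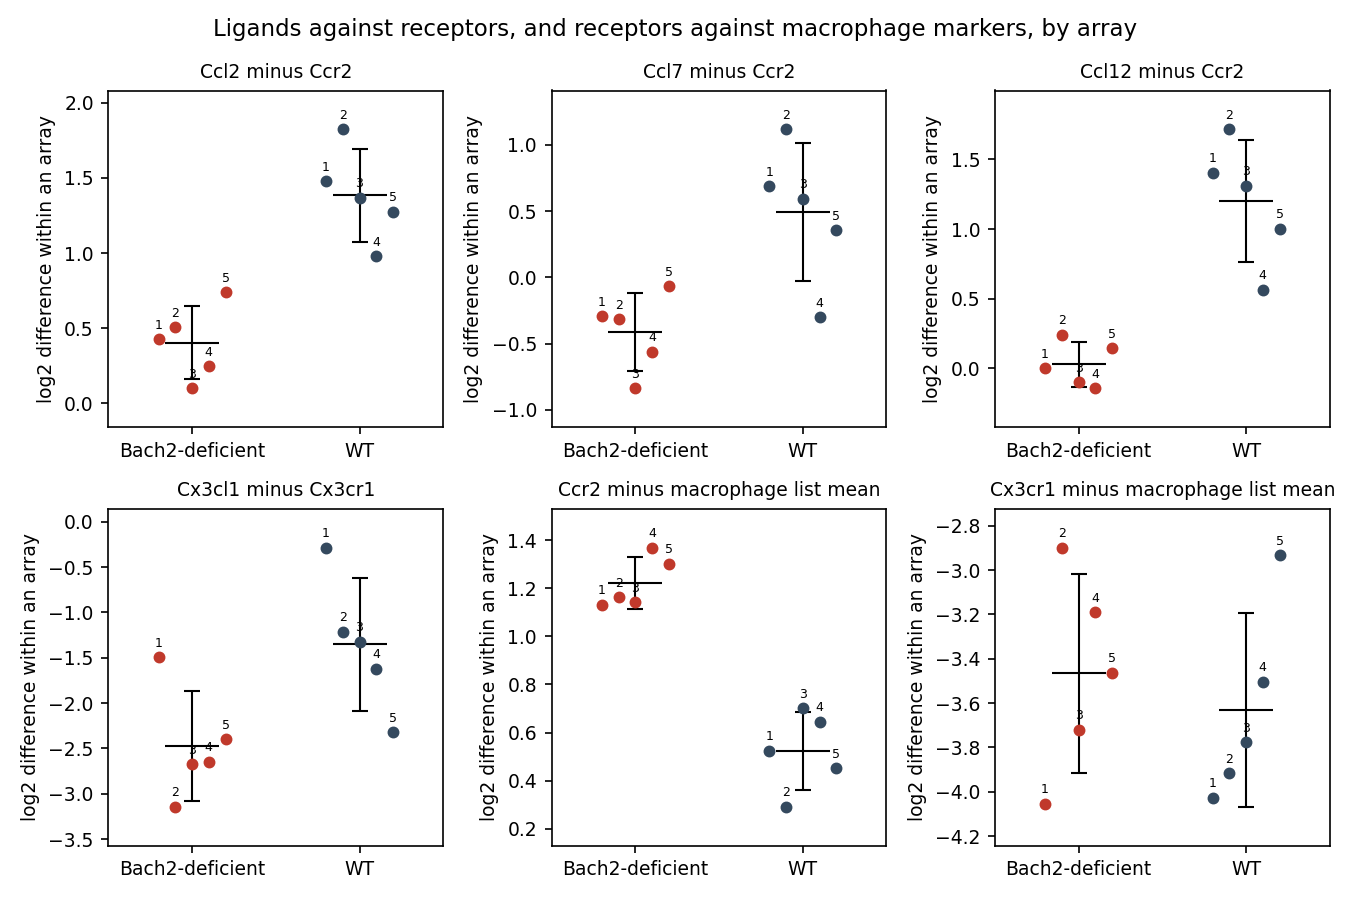
Log2 difference of 2 genes, or of a gene and the mean of the macrophage list, within an array (vertical axes, each with its own range), Bach2-deficient arrays left and WT arrays right, with replicate numbers and the mean ± SD of 5 arrays. Ccl2 minus Ccr2 and Ccl12 minus Ccr2 are lower, and Ccr2 minus the macrophage mean is higher, on every Bach2-deficient array than on any WT array.

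The same was done against markers of cells that carry these genes. The mean of 16 macrophage genes ran from 10.67 to 11.22 in Bach2-deficient and from 9.49 to 10.51 in WT tumors. Ccr2 minus that mean was 1.13 to 1.37 in Bach2-deficient and 0.29 to 0.70 in WT tumors, without overlap (difference 0.70, exact p = 0.00794, adjusted p = 0.0265), and this held with any 1 array left out. The list is mixed, however. Adgre1 (2.10), Cd14 (2.05), Csf1r (1.93) and C1qc (1.67) rose by more than Ccr2 (1.59). The rest of the list changed by less, among them Gpnmb (-0.05) and Apoe (0.15), which did not pass. Each value mixes melanoma, stromal and immune cells, and which cells gave the RNA of these list genes was not tested. The difference for Ccr2 is therefore one against this list, not against macrophages as such. Cx3cr1 minus that mean differed by 0.17 (exact p = 0.548), with a range of -4.05 to -2.90 in Bach2-deficient and -4.03 to -2.93 in WT tumors. With genes as the mean of their probe sets the Ccr2 value was 1.45, and the sign of the Cx3cr1 value turned (-0.27).

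The result for Ccr2 depended on the marker list. The means of 4 other lists were added after the data were seen, giving 8 values for Ccr2 and Cx3cr1 that were adjusted together. Ccr2 minus the classical monocyte mean was 0.74 to 0.97 in Bach2-deficient and 0.42 to 0.85 in WT tumors, overlapping (difference 0.25, exact adjusted p = 0.0381). That call was lost without Bach2-deficient array 1 (0.24), 4 (0.22) or 5 (0.25) and without WT array 1 (0.22), 2 (0.25), 4 (0.27) or 5 (0.21). Against the non-classical monocyte mean the difference was 0.044 (exact adjusted p = 0.794). Against the T cell mean (-1.25) and the NK cell mean (-1.86) Ccr2 was lower in Bach2-deficient tumors without overlap, each with an exact adjusted p of 0.0159. These values read Ccr2 on 1421186_at, which had the smallest rise of its probe sets (1.59, against up to 2.87 on 1421188_at). Values for these lists with the other Ccr2 probe sets are not given, so their size and sign hold for 1421186_at only.

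Cx3cr1 was likewise lower against the T cell mean (-1.78) and the NK cell mean (-2.40), without overlap and with the same adjusted p. Against the classical (-0.28) and non-classical (-0.49) monocyte means it did not pass, although the non-classical value passed without Bach2-deficient array 2 (-0.64, exact adjusted p = 0.0423).

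Ccl2 (-0.28), Ccl7 (-0.21) and Ccl12 (-0.47) minus the macrophage mean did not pass after adjustment (exact adjusted p from 0.0680 to 0.459). Without WT array 4 the Ccl12 value passed (-0.60, exact adjusted p = 0.0159). Cx3cl1 minus the mean of 14 endothelial genes was higher by 0.34 (exact p = 0.0238, adjusted p = 0.0476). Cx3cl1 itself was not higher (-0.07). The endothelial mean averaged 4.89 in Bach2-deficient and 5.29 in WT tumors, so the value mostly restates the lower endothelial mean. The call held without Bach2-deficient array 3 (0.41) or WT array 1 (0.38). It was lost without Bach2-deficient array 1 (0.29), 2 (0.34), 4 (0.32) or 5 (0.33) and without WT array 2 (0.31), 3 (0.31), 4 (0.35) or 5 (0.34), and with genes as the mean of their probe sets (0.14). The endothelial mean itself was dim, at 4.72 to 4.99 in Bach2-deficient and 5.14 to 5.38 in WT tumors, and 7 of its 14 genes were among the dimmest 30%.

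Within each genotype the CC ligands varied together. After the genotype mean was taken off each array, the 3 pairs of Ccl2, Ccl7 and Ccl12 had Pearson correlations of 0.90 to 0.91 over 10 arrays (Spearman 0.82 to 0.92, and Pearson 0.78 to 0.91 with 2 arrays left out). The 2 arrays left out of a pair were those furthest from the median of its first gene, in the order Ccl2, Ccl7, Ccl12, Ccr2. They can differ between pairs, and the second gene had no part in the choice. Ccr2 and Cx3cr1 had 0.87 (Spearman 0.81), and 0.63 without the 2 arrays furthest out for Ccr2. The ligands with the receptors had 0.36 to 0.68 (Spearman 0.22 to 0.49). Without the 2 arrays furthest out for the ligand, the relations of Ccl2 and Ccl12 with the receptors ran from -0.43 to 0.15. These relations thus rest on the arrays left out, while Ccl7 had 0.41 with Ccr2 and 0.37 with Cx3cr1. The points share arrays and normalization, and the values are descriptions. WT array 1 was the lowest of its group for Ccl2, Ccl7, Ccl12, Ccr2 and Cx3cr1.

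By the same measure the genes most like Ccr2 were Fyb (0.98), Runx1 (0.98) and Cd53 (0.97), which changed by 1.41, 1.90 and 0.56 and all rose. Those most like Cx3cr1 were Slc29a3 (0.99), Fam20c (0.98) and Ttc17 (0.97), of which Slc29a3 rose (1.39). Ccl2 was most like Slfn9 (0.94), Cd200r1 (0.93) and Anxa3 (0.93), and Ccl7 most like Slfn9 (0.91), Dffb (0.90) and Map3k6 (0.90). Of these only Cd200r1 rose (1.45). Ccl12 was most like Slc10a3 (0.95), Rgs1 (0.95) and Cgas (0.93), which rose by 1.49, 1.17 and 0.67. Cx3cl1 was most like Hnrnpa1 (0.96), Mkln1os (0.95) and Rpl6 (0.89), none of which passed.

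Of 15 other CC chemokine genes measured, 8 rose, 1 fell and 6 did not pass, with a median change of 1.02 against -0.06 over all genes; 3 rose and 0 fell with the Xist term. Ccl1, a ligand of CCR8, averaged 8.59 in Bach2-deficient and 4.76 in WT tumors (3.83, limma adjusted p = 8.84e-05), and Ccl5, a T cell and macrophage product, averaged 12.03 and 8.68 in the same order of groups (3.34). The smallest rise, 0.50 for Ccl6, was under the changes of Ccl2 and Ccl7. Ccl25, a ligand of CCR9, fell by 0.75. Along the chromosome 11 cluster the changes were 0.61 for Ccl2, 0.68 for Ccl7, 0.75 for Ccl11 (an eotaxin, under 4.98 in both groups, not passing), 0.42 for Ccl12, 2.07 for Ccl8 (rose) and 3.83 for Ccl1 (rose). The WT mean of Ccl1 lay under 4.98, so its size is not exact.

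Of 8 other CC receptor genes, 4 rose, 0 fell and 4 did not pass (median 0.93); Ccr6 fell without WT array 3 (-0.46). Ccr1, carried by monocytes and neutrophils, rose by 1.80 and Ccr3, carried by eosinophils, by 4.26 from a WT mean of 4.54. Both precede Ccr2 in the chromosome 9 cluster. Ccr1l1, between Ccr1 and Ccr3, was dim (2.92 in Bach2-deficient and 3.01 in WT tumors) and did not pass.

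**Figure D5:**
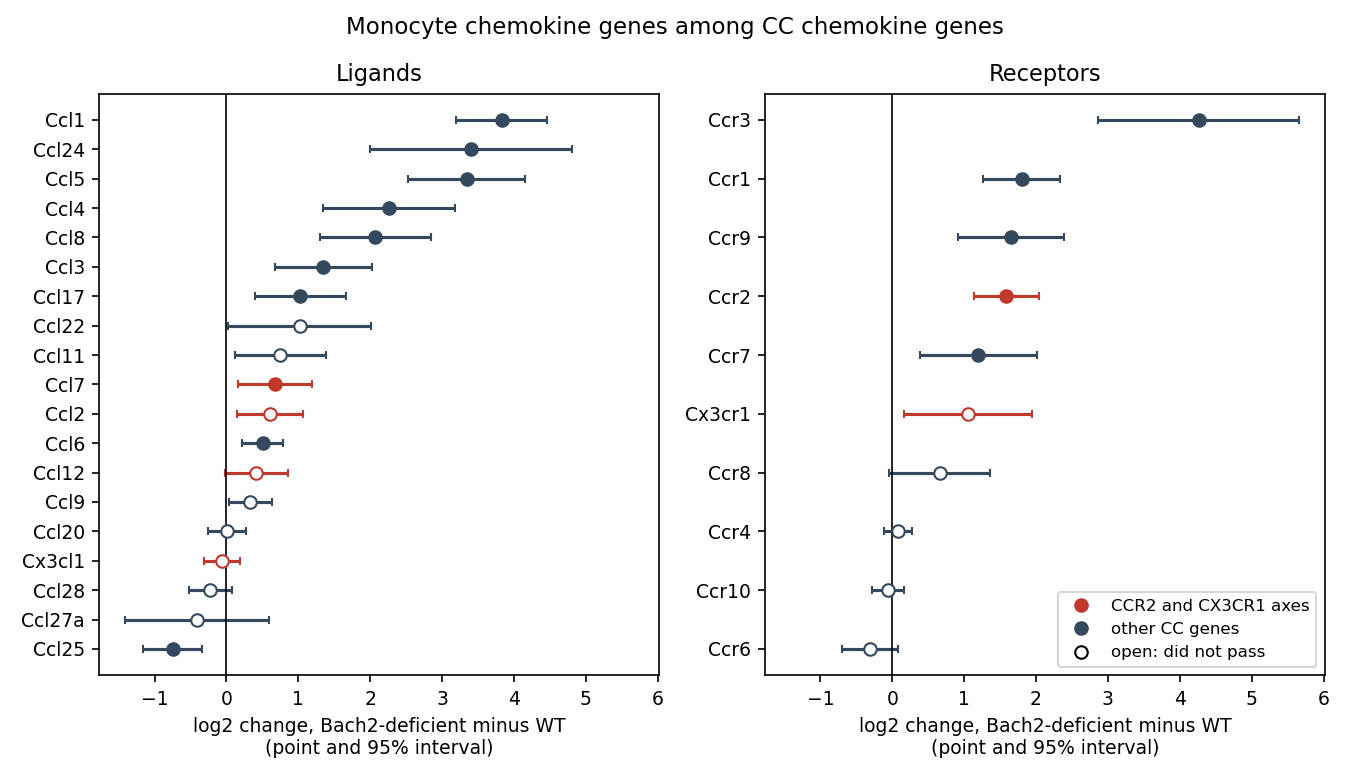
Log2 change, Bach2-deficient minus WT (horizontal axes), with its 95% interval for chemokine genes (left) and receptor genes (right), ordered by size. Red marks the 6 genes of the CCR2 and CX3CR1 axes, dark blue the other CC genes, and open points did not pass. Ccl2, Ccl7 and Ccl12 lie at 0.42 to 0.68, under Ccl1, Ccl24, Ccl5, Ccl4, Ccl8 and Ccl3.

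Genes of atypical chemokine receptors and of CX3CL1 shedding were also read. Of 5 genes listed as atypical receptors, Ccrl2 rose (2.69, limma adjusted p = 0.00350). With the Xist term its change was 2.39, a size from Bach2-deficient array 2 alone that does not show whether the rise holds. Whether its product binds the ligands described here was not tested. Ackr1 (-0.57), Ackr2 (0.06), Ackr3 (-0.21) and Ackr4 (0.19) did not pass, except that Ackr1 fell without WT array 2 (-0.66) or 3 (-0.72) and with array weights (-0.51). Of the 4 genes for shedding of CX3CL1, the protease gene Adam17 rose by 0.77 and Rhbdf2, a partner needed for its maturation, by 1.85, while Adam10 (-0.05) and Rhbdf1 (-0.85) did not pass; 1 rose with the Xist term. Rhbdf1 passed as lower without Bach2-deficient array 1 (-1.13), with array weights (-1.12) and with the replicate block (-0.85, limma adjusted p = 0.0354).

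Of 14 cytokine, receptor and NF-kB genes known to drive Ccl2 in other settings, 12 rose and 0 fell (median 1.82; 2 rose with the Xist term). Ifng rose by 5.84, from a WT mean of 4.95 that lay under 4.98, so its size is not exact. The interferon-γ receptor chain gene Ifngr1 rose by 1.76. Of 17 genes of chemokine receptor signalling, 15 rose and 0 fell (median 1.51; 9 with the Xist term), with Pik3r5, an adaptor of PI3Kγ, at 2.11 and Dock2, a Rac activator of leukocyte migration, at 2.96.

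Most listed markers of the cells that carry CCR2 and CX3CR1 rose on the same arrays. Of 11 classical monocyte genes 9 rose (median 1.54), among them Ms4a4c (1.88) and the integrin gene Itgam (2.68, from a WT mean of 4.72). Of 13 non-classical monocyte genes 8 rose (median 1.64), with Pglyrp1 at 2.66 and Itgal, an integrin also of T cells, at 2.99. Treml4 (1.58), Ace (0.49), Cd36 (0.26), Eno3 (-0.16) and Cd9 (-0.22) did not pass. Treml4 and Ace passed without Bach2-deficient array 1 (2.02 and 0.74) and in some other alternatives. Whether the 8 that rose read monocytes or other cells was not tested. Of 16 macrophage genes 10 rose (median 0.94), with Csf1r at 1.93 and Tyrobp at 1.02. None of the genes of these 3 lists fell with all arrays, and Cd9 fell without Bach2-deficient array 3 (-0.33). With the Xist term 4, 4 and 5 of them rose.

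All 13 T cell genes (median 2.67) and all 6 NK cell genes (median 3.50) rose as well. The T cell mean ran from 8.91 to 10.26 in Bach2-deficient and from 6.02 to 7.35 in WT tumors, and the NK cell mean from 8.45 to 9.997 and from 5.17 to 6.54 in that order. These log2 values have no zero (the lowest in the table was 1.99), so the absence of a marker cannot be read from them. The part of each cell type in the rise of Ccr2 was not tested. Of 10 neutrophil genes 3 rose (median 0.75; 0 with the Xist term). Of 14 endothelial genes 5 fell and 1 rose (Pecam1, 2.00, which leukocytes also express). Endothelial genes that fell included Ptprb (-1.82) and Egfl7 (-1.18). Without Bach2-deficient array 1 or WT array 2 the endothelial rises numbered 2, with Kdr at 0.86 and 0.87, as they did with the Xist term, where 2 fell.

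Melanocyte and fibroblast lists were read too, B16 being a melanoma. Of 12 melanocyte genes 5 fell and 0 rose (median -0.34), among them Oca2 (-0.90) and Trpm1 (-0.59). Their mean was 11.30 to 12.05 in Bach2-deficient and 11.91 to 12.19 in WT tumors, overlapping at Bach2-deficient array 1. The falls numbered 9 without that array, 2 without Bach2-deficient array 2 or 4, 3 without Bach2-deficient array 3 or WT array 1, 2 or 4, and 2 with the Xist term. Of 12 fibroblast genes 5 fell, among them the collagen genes Col6a3 (-2.28) and Col1a2 (-1.80), and 1 rose (Thy1, 3.32, which T cells also express; median -0.64). The part of these shifts in the rise of Ccr2 was not tested.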

How the data were processed

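The deposited table holds log2 values made by the authors with RMA and Partek, per the submitters' processing notes (no versions are named); the scale was taken from the size of the values, which were not changed. RMA makes array distributions alike (medians 5.80 to 5.88); the number of arrays limits the precision. Of 45101 probe sets, 64 controls, 932 with several symbols and 9160 without one in the platform annotation were left out.

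The difference between genotypes came from limma (version 3.58.1, R 4.3.3; lmFit and eBayes, 2-sided) over all 10 arrays, with Benjamini-Hochberg adjustment over 18193 genes (brightest probe set each) or over 34945 probe sets. The fit and the permutation test were tested on simulated data. A gene "rose" or "fell" at an adjusted p under 0.05. The members, lists and tests were chosen with earlier results of these data known. Named were the 6 genes with their probe sets, the called list genes of smallest p (2 in each direction, or any of a list of up to 5), the 3 genes most like each member outside the dimmest 30%, and array checks. Ccl8, Ccl11 and Ccr1l1 were added for their place in the clusters, and Ackr1, Ccr6, Cd9 and Kdr as calls that turned on 1 array, after their values were seen. Ccl6 and Eif2s3y, and 4 further marker lists for Ccr2 and Cx3cr1, were also added after values were seen. So were the macrophage list genes Adgre1, Cd14, C1qc, Gpnmb and Apoe, which the naming rule does not give. The same holds for Treml4, Ace, Cd36 and Eno3, and for Ccl3, Ccl4 and Ccl24 in a caption. Alternatives were another quantile normalization, median centring, a filter on dim genes, mean probe sets, trended robust moderation, array weights, a replicate block, an Xist term and leaving out each array.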

Additional observations from a re-analysis of the deposited data

Results flagged for a closer look

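In groups of 5 arrays, a lowest or highest array was marked where its gap to the nearest other exceeded 0.71 of the group's range. Chance marks about 1 in 20 groups, and 4 of the 46 examined here were marked. Of these, 3 were Bach2-deficient array 1 on Ccr2 probe sets. It read 11.80 on 1421186_at (the other 4 arrays 12.26 to 12.40), 9.60 on 1460067_at (others 10.37 to 10.68) and 8.90 on 1421188_at (others 9.79 to 10.05), still above every WT array. Without it the change of Ccr2 was 1.70. The remaining one was Bach2-deficient array 3 on Cx3cl1 probe set 1415804_at, at 4.72 (others 5.13 to 5.24).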

How the results depend on the processing

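Ccr2 passed in all 18 alternatives, and Ccl12 in none. Ccl2 passed with the dimmest 30% of genes left out, with mean probe sets or with trended robust moderation (0.61 each), with array weights (0.70) and with the replicate block (0.61); with 1 array left out it ran from 0.47 to 0.71. Ccl7 missed the threshold when quantile normalized again (0.64) and with the Xist term (0.92), and ran from 0.56 to 0.79 with 1 array left out. Cx3cr1 passed with mean probe sets (0.65), array weights (1.30) and the replicate block (1.05), and ran from 0.79 to 1.32 with 1 array left out. Cx3cl1 turned in sign with the Xist term (0.021) and ran from -0.10 to 0.025. Over all genes 1030 rose and 387 fell with the Xist term (2962 and 2264 without it), and falls ran from 1388 to 2807 with 1 array left out, 1388 without Bach2-deficient replicate 2 and 1447 without replicate 4. Member probe sets passing numbered 9 with array weights, 8 with the block, 3 with the Xist term and 5 to 8 with 1 array left out.

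The replicate block by exact sign flips of 5 pairs cannot go below p = 0.0625, so it left no per-array call: -0.98, -0.91 and -1.17 for Ccl2, Ccl7 and Ccl12 minus Ccr2, 0.70 for Ccr2 minus the macrophage mean and 0.34 for Cx3cl1 minus the endothelial mean. With mean probe sets Cx3cl1 minus Cx3cr1 passed (-0.82), Cx3cl1 minus the endothelial mean did not (0.14) and Cx3cr1 minus the macrophage mean turned in sign (-0.27). The non-classical monocyte, T cell and NK cell lists in place of the macrophage list were added after the data were seen. With them Ccr2, read on 1421186_at, did not pass (0.044) or turned in sign (-1.25 and -1.86). Cx3cr1 turned in sign with these lists (-0.49, -1.78 and -2.40) and with the classical monocyte list (-0.28). With 1 array left out, Ccl7 minus Ccr2 ran from -1.10 to -0.75, Ccl12 minus Ccr2 from -1.33 to -1.04, Cx3cl1 minus Cx3cr1 from -1.36 to -0.85, Ccl12 minus the macrophage mean from -0.60 to -0.40 and Cx3cl1 minus the endothelial mean from 0.29 to 0.41. Same-numbered samples deviated together with correlations of 0.01 to 0.32, and 2 of 5 correlated best with their own number, so the numbers were not taken as pairs. The causes of these changes were not tested.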
